A study of Mus musculus with 6 samples.

Results

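Ion channels and neurotransmitter receptors set how a neuron fires and how it answers its neighbours. Voltage-gated sodium, calcium and potassium channels shape the action potential, ligand-gated receptors turn transmitter into current, and G protein-coupled receptors tune both more slowly. KHSRP, the KH-type splicing regulatory protein, binds mRNAs with AU-rich elements and promotes their decay, so the question asked here is which channel and receptor transcripts differ in level between neocortex with and without it. Of 60915 probes on the array, 1788 carry a gene symbol in the study's table of changed transcripts, and 42 of these have a symbol that begins like that of a channel or receptor family. The 42 probes stand for 39 of the 1714 genes named there, and 36 probes (33 genes) are in the part of the table for higher transcripts and 6 in the part for lower ones. The table as a whole is split in a similar way, with 1522 probes in the higher part and 266 in the lower. The study reported more lower than higher mRNAs, so the lower part with symbols does not hold them all. One symbol, *Htra3*, matched by its letters only and names a secreted serine protease, which leaves 38 channel and receptor genes.

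The samples were neocortex of adult male mice, of which 3 were KHSRP-KO and 3 were wild type (WT), with RNA of 1 mouse on 1 array of 1 colour. The KHSRP-KO mice lack *Khsrp* in every cell from conception through a germline deletion on a C57Bl/6 background, the WT mice came from the same litters, and no animal was treated. Every value below is a scaled log2 signal, the log2 of the background-subtracted spot intensity minus the 75th percentile of its array, and every change is the KHSRP-KO mean minus the WT mean on that scale. In bulk tissue, fewer cells of a type and less RNA per cell cannot be told apart. No probe was named for *Khsrp*, whose level was not analysed here, and genotypes are as labelled.

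The members were selected on the contrast between these same 6 arrays, so their changes are given as a description and without a test. Among the 48436 probes well above background on at least 3 arrays, 9.26% were higher in KHSRP-KO by at least 0.32 on the log2 scale at an unadjusted p under 0.05 from limma, 7.03% were lower by the same rule, and 0.095% passed in either direction after Benjamini-Hochberg adjustment. All 42 members passed the background filter, and 39 were well above background on all arrays. In the table's part for higher transcripts, 34 of the 36 members met the unadjusted rule, with *Kcnh7* and *Kcna2* as the exceptions, and 6 of the 6 lower members did. None of the 42 passed after adjustment, where the smallest adjusted p from limma was 0.115. Every KHSRP-KO array lay above every WT array for 35 of the 36 higher members, against 12.4% of all probes, and below for 5 of the 6 lower members, against 9.9%. These shares follow from how the members were chosen.

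The change of the higher members had a median of 0.61, and its lowest value was 0.27 for *Kcna2*. Over the 33 higher members well above background on all arrays, the median was 0.57 and the highest change 1.26, for *Kcnmb3*. *Grin3b* and *Ano5* were not well above background on any WT array, so for them a lower bound on the difference of the scaled means is given below. That of the lower members had a median of -1.03 and ran from -1.18 for *Kcnip1* and *Cacng6* to -0.78 for *Kcnv2*. The other probes of the table were much alike, with a median of 0.56 over 1444 higher probes and -1.08 over 260 lower ones. At the edge of the table, on the authors' normalized log2 values, *Kcna2* and a probe of *Kcnma1* (ASMM10P006224) were higher by 0.33. The lower member nearest the edge was *Kcnv2*, which changed by -0.77 on the same values. Its mean unscaled raw signal in KHSRP-KO was 0.485 of that in WT. Changes of the other probes began at 0.28 in the higher part and at -0.64 in the lower part. The parts were thus cut at unlike sizes of change, and their medians do not compare rises with falls. Probes just outside the table have no symbol and were not analysed here.

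Which arrays shared a slide bears on all of these values. By their scan times, KHSRP-KO array 1 and WT array 3 were on 1 slide, KHSRP-KO arrays 2 and 3 on another and WT arrays 1 and 2 on a further one, so that genotypes can be compared within only 1 slide. On that shared slide the median difference of the higher members was 0.39, with 35 above 0 and 19 at 0.32 or more, whereas between the other slides it was 0.75. For the lower members these medians were -0.47 and -1.28. KHSRP-KO array 1 was the KHSRP-KO array nearest to WT for 26 of the 36 higher members (72.2%), for 5 of the 6 lower ones, for 71.3% of the other higher probes of the table and for 49.3% of all probes. The SD among KHSRP-KO arrays exceeded that among WT arrays for 28 of the 36 higher members and for 6 of the 6 lower ones, and for 68.6% of all probes. The part of slide and of this array in the changes was not tested, so each change below is given beside the difference on the shared slide.

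**Figure D1:**
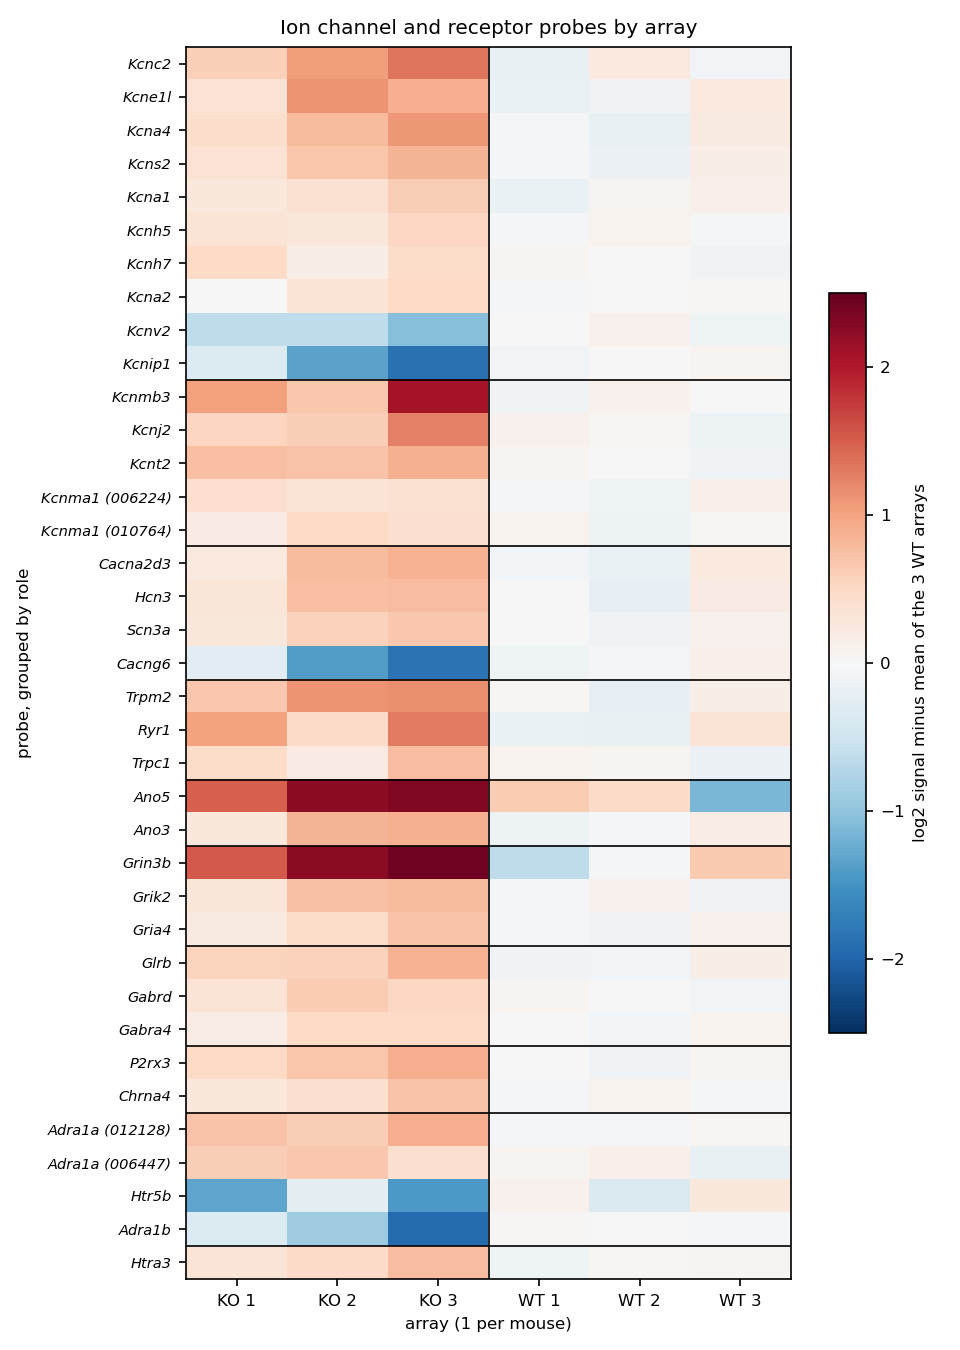
Scaled log2 signal of each of the 37 probes named in the text (rows, grouped by role) on each of the 6 arrays (columns), minus the mean of the 3 WT arrays for that probe. Red is above and blue below the WT mean; most rows are palest on KHSRP-KO array 1 among the KHSRP-KO arrays, and the 5 blue rows are *Kcnv2*, *Kcnip1*, *Cacng6*, *Htr5b* and *Adra1b*.

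*Trpm2* and *Trpc1*, of the TRP family of cation channels, and the ryanodine receptor *Ryr1* were higher in KHSRP-KO both within the shared slide and between the other slides. The changes of these 3 genes lay between 0.49 and 0.99 and their shared slide differences between 0.52 and 0.65, while between the other slides *Trpm2* differed by 1.22, *Ryr1* by 1.06 and *Trpc1* by 0.43, and this group was singled out after its values were seen. Being higher on both comparisons of slides is not particular to them, since 35 of the 36 higher members were above 0 on the shared slide. *Kcnt2*, for instance, differed by 0.85 there and by 0.76 between the other slides. For *Trpm2*, *Trpc1* and *Ryr1* the RefSeq promoter table (GRCm38.p6) holds the 250 bases before the transcription start, printed here in the direction of the gene. Capitals mark GGGCGG (a GC box) or TATAAA on either strand. All 3 genes lie on the minus strand, *Trpc1* at chr9:95750349-95750598, *Trpm2* at chr10:77969873-77970122 and *Ryr1* at chr7:29125152-29125401.
Trpc1: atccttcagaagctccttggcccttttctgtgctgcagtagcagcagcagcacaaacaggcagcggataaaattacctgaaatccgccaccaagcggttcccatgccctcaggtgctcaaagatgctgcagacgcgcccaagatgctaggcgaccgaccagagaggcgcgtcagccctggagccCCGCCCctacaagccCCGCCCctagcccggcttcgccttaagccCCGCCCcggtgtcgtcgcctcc
Trpm2: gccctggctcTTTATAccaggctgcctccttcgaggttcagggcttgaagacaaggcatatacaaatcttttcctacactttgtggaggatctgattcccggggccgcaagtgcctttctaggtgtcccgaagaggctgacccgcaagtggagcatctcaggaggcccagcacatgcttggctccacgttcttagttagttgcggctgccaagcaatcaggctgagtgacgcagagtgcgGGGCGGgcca
Ryr1: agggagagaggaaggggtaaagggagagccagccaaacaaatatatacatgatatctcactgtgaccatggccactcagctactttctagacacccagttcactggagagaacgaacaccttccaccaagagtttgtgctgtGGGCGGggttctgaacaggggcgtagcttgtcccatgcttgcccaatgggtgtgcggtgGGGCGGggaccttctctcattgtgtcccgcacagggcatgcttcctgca

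The GC box letters occurred 3 times before *Trpc1*, 2 times before *Ryr1* and 1 time before *Trpm2*, which also held the TATAAA letters 1 time. Over the 250 bases before each of 32851 RefSeq starts, GGGCGG was found in 32.7% and TATAAA in 12.4%. For 26 member genes with 33 starts in that table, 16 of the starts, 1 for each of 16 genes, held GGGCGG, and 3 held TATAAA, before *Ano3*, *Grin3b* and *Trpm2*. The median GC content was 61.2% over the starts of members and 52.4% over all starts. These are letters in a window, and no factor was measured at them.

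*Trpm2*, a cation channel opened by ADP-ribose and oxidative stress, had the largest change of these genes. Its signal was -0.80, -0.34 and -0.31 on KHSRP-KO arrays 1, 2 and 3 and -1.42, -1.67 and -1.32 on WT arrays 1, 2 and 3, a change of 0.99 (SE 0.19) with 0.52 on the shared slide. The lowest KHSRP-KO array stood 0.52 above the highest WT array. *Ryr1*, the ryanodine receptor best known for releasing calcium in skeletal muscle, had a change of 0.92 (SE 0.26) and a slide difference of 0.65, and only 0.12 separated the genotypes. *Trpc1* encodes a cation channel that opens downstream of receptors coupled to phospholipase C, and it changed by 0.49 (SE 0.19) with 0.61 on the slide. The shared slide thus gave the larger difference for *Trpc1*, as it did for 8 of the 36 higher members.

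Potassium channels made up the largest share of the members. Voltage-gated subunits and their regulators numbered 10 genes, 8 higher and 2 lower, and of the higher ones 6 met the unadjusted rule. *Kcnc2*, a Kv3 subunit that lets fast-spiking interneurons repolarize quickly, led them, at -2.47, -2.03 and -1.73 on the KHSRP-KO arrays and -3.25, -2.82 and -3.14 on the WT arrays. Its means were -2.07 ± 0.37 and -3.07 ± 0.22 (SD, n = 3 each), a change of 1.0 (SE 0.23) with 0.68 on the shared slide and no overlap. With background corrected by normexp the change was 0.55.

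The Kv1 genes encode channels of axons and nerve terminals, with *Kcna4* giving an A-type current that inactivates quickly. *Kcna4* was higher by 0.77 (SE 0.21) but by 0.21 on the shared slide, *Kcna1* by 0.42 (SE 0.17) and 0.15. *Kcna2* was the weakest of all members. Its signal was 7.21, 7.55 and 7.70 against 7.18, 7.20 and 7.26, a change of 0.27 (SE 0.17), and KHSRP-KO array 1 fell inside the WT range. On the shared slide its difference was -0.05, and without scaling between arrays its change was -0.02, so its direction is not settled.

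*Kcne1l*, a small regulatory subunit with 1 transmembrane segment, was higher by 0.80 (SE 0.24) with 0.11 on the slide, and *Kcns2*, a silent subunit that modifies Kv2 channels, by 0.63 (SE 0.18) with 0.21. The ether-a-go-go related genes went the other way in this respect. *Kcnh5* changed by 0.38 (SE 0.15) with 0.40 on the slide, and *Kcnh7* by 0.37 (SE 0.16) with 0.59. *Kcne1l*, *Kcna4* and *Kcns2*, with larger changes over all arrays, thus came to at most 0.21 on the shared slide.

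Both lower genes of the voltage-gated group encode modulators rather than pore-forming subunits that work on their own, as do the higher *Kcne1l* and *Kcns2*. *Kcnip1* encodes KChIP1, a calcium-binding partner of the Kv4 channels that carry the A-type current of dendrites. Its signal was 2.42, 1.44 and 0.91 on the KHSRP-KO arrays and 2.71, 2.77 and 2.84 on the WT arrays. The WT arrays lay within a narrow band and the KHSRP-KO arrays were spread widely below it (1.59 ± 0.77 against 2.77 ± 0.07, SD, n = 3 each), for a change of -1.18 (SE 0.36), or 0.44-fold, with -0.42 on the shared slide. *Kcnv2*, a silent subunit, was at -0.99, -1.0 and -1.43 against -0.37, -0.25 and -0.46, a change of -0.78 (SE 0.18) with -0.53 on the slide. Its KHSRP-KO arrays were the least spread of the lower members.

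Potassium channels gated by ions, and the inward rectifier *Kcnj2*, were higher in all 5 probes of 4 genes. *Kcnmb3*, an auxiliary subunit of the large-conductance calcium-activated (BK) channel, was at -3.61, -3.97 and -2.56 on the KHSRP-KO arrays and -4.73, -4.53 and -4.65 on the WT arrays, a change of 1.26 (SE 0.35) with 1.04 on the slide. KHSRP-KO array 3 stood well above the other KHSRP-KO arrays, and with normexp the change was 0.55. *Kcnma1*, which encodes the BK pore itself, had 2 probes with smaller changes. The first probe (ASMM10P006224) was at 3.45, 3.37 and 3.41 against 3.01, 2.92 and 3.15, a change of 0.39 (SE 0.14) with 0.31 on the slide. The second (ASMM10P010764) was at 2.23, 2.52 and 2.44 against 2.12, 1.91 and 2.06, a change of 0.37 (SE 0.16) with 0.17 on the slide. The named probes of the pore gene gave nearly the same change, without overlap between genotypes in either. Each was selected as higher on these arrays, so their shared direction follows from that choice. Any other probe of the gene has no symbol here.

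*Kcnt2*, the sodium-activated channel also called Slick, was among the tightest members, with KHSRP-KO arrays at -2.91 ± 0.09 and WT arrays at -3.70 ± 0.08 (SD, n = 3 each). Its change was 0.79 (SE 0.14), with 0.85 on the shared slide and 0.48 after normexp. *Kcnj2*, which encodes Kir2.1 and helps hold the resting potential, changed by 0.80 (SE 0.22) with 0.67 on the slide. These 2 genes kept most of their change within the slide that held both genotypes, as did *Kcnmb3* and probe ASMM10P006224 of *Kcnma1*.

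**Figure D2:**
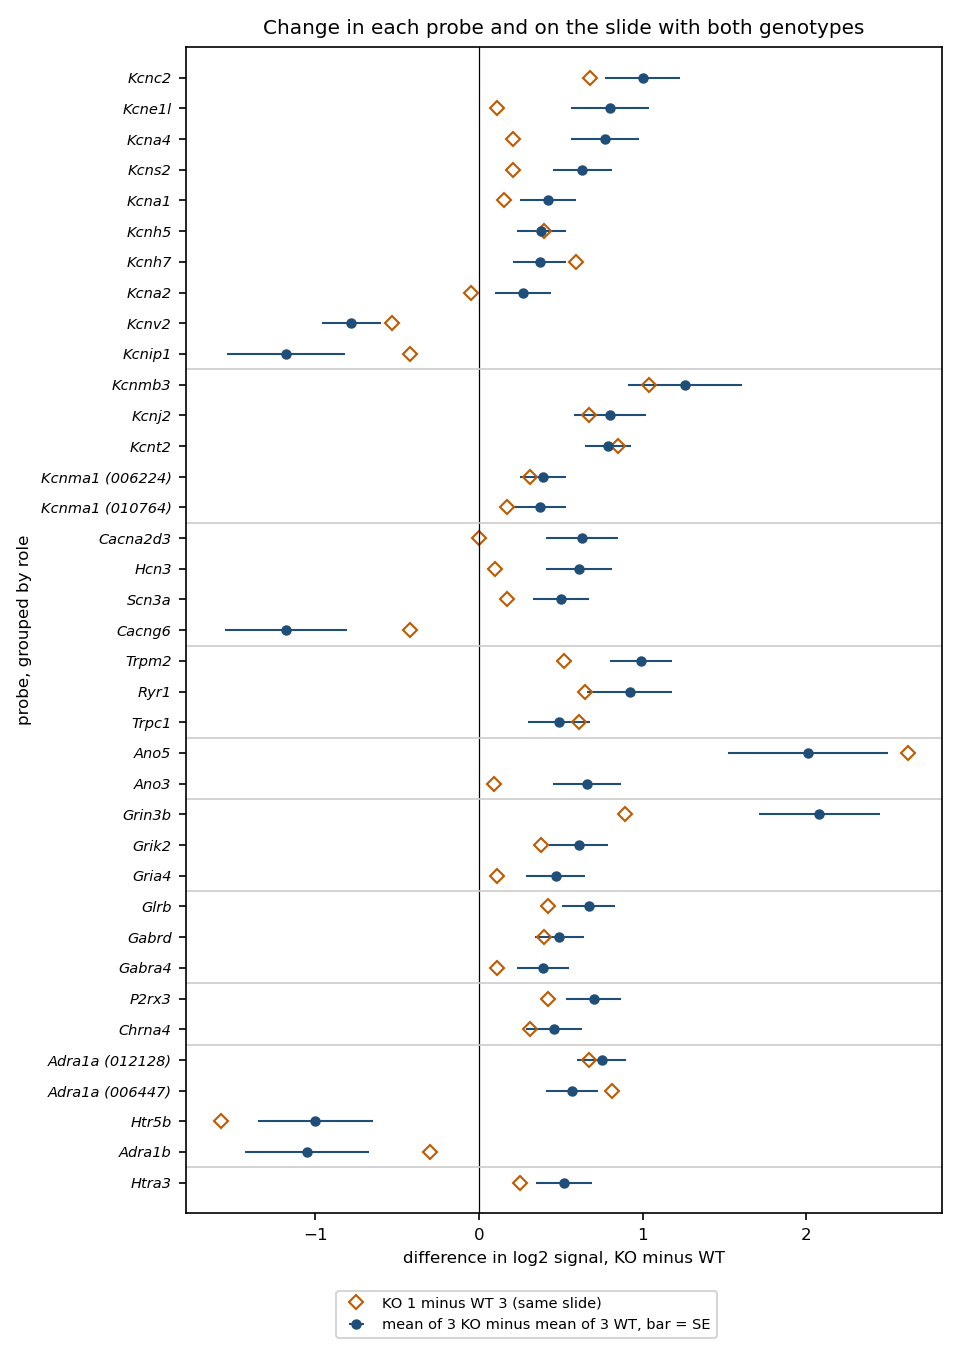
Change in log2 signal of each probe named in the text, KHSRP-KO minus WT, as the difference of the means of 3 arrays with its SE (blue), and the difference between KHSRP-KO array 1 and WT array 3 on the shared slide (orange diamonds, 1 array each, no error). The diamonds lie nearer to 0 than the means for most rows, whereas those of some, such as *Trpc1*, *Kcnh7* and *Ano5*, lie farther out.

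Sodium, calcium and pacemaker channel subunits went in both directions, and the 3 higher ones differed by at most 0.17 on the shared slide. *Cacna2d3*, an alpha2delta subunit that brings calcium channels to the membrane, headed this group, at 6.03, 6.58 and 6.65 on the KHSRP-KO arrays and 5.72, 5.62 and 6.03 on the WT arrays. Its change was 0.63 (SE 0.22), and KHSRP-KO array 1 equalled WT array 3 to within 0.00 on the shared slide. *Hcn3*, a pacemaker channel opened by hyperpolarization, changed by 0.61 (SE 0.20) with 0.10 on the slide, and *Scn3a*, a sodium channel most abundant in the developing brain, by 0.50 (SE 0.17) with 0.17. The lower gene was *Cacng6*, a gamma subunit related to the AMPA receptor partners known as TARPs. It was at 4.21, 3.10 and 2.65 against 4.39, 4.47 and 4.63, a change of -1.18 (SE 0.37) with -0.42 on the slide. As with *Kcnip1*, KHSRP-KO array 1 lay close to the WT arrays and array 3 farthest from them.

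The anoctamin genes held 1 of the dimmest members and 1 bright one. *Ano5*, an anoctamin known from muscle, was at -4.48, -3.74 and -3.66 on the KHSRP-KO arrays and -5.33, -5.49 and -7.11 on the WT arrays, and was not well above background on any WT array. On the scaled means it was at least 1.93-fold higher (0.95 in log2), with no allowance for error. This bound sets the KHSRP-KO mean against the lowest signal well above background on each WT array. The measured difference, against WT signals at background, was 2.01 (SE 0.49), with 2.62 on the slide. After normexp it was 0.47, which is below the bound. It passed the background filter through the KHSRP-KO arrays, on which it was higher.

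*Ano3*, an anoctamin of neurons, was by contrast well above background on all arrays. Its signal was 6.28, 6.87 and 6.91 against 5.89, 5.98 and 6.20, a change of 0.66 (SE 0.21), and the shared slide gave 0.09. *Ano3* is known for expression in the striatum, and of 9 striatal markers the table named 1, *Drd1*. *Drd1* was at 3.28, 4.75 and 3.56 on the KHSRP-KO arrays and 2.68, 2.52 and 2.82 on the WT arrays, a change of 1.19 (SE 0.37) with 0.46 on the slide. For both genes KHSRP-KO array 1 was the lowest KHSRP-KO array and WT array 3 the highest WT array. *Drd1* was highest on KHSRP-KO array 2, and *Ano3* was nearly level on KHSRP-KO arrays 2 and 3. The part of striatal tissue in the change of *Ano3* was not tested.

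Ionotropic glutamate receptors were represented by 1 subunit each of the NMDA, kainate and AMPA classes. *Grin3b* encodes the glycine-binding GluN3B subunit of NMDA receptors. Its signal was -4.35, -3.64 and -3.45 on the KHSRP-KO arrays and -6.53, -5.91 and -5.24 on the WT arrays. It was not well above background on any WT array and, like *Ano5*, passed the background filter through the KHSRP-KO arrays, on which it was higher. The bound used for *Ano5* gave at least 2.14-fold (1.1 in log2) for the means of scaled signal, with no allowance for error. The measured difference, against WT signals at background, was 2.08 (SE 0.37). The values of 0.89 on the slide and 0.51 after normexp were below that bound. *Grik2*, the kainate receptor subunit GluK2, changed by 0.61 (SE 0.18) with 0.38 on the slide, and *Gria4*, the AMPA receptor subunit GluA4, by 0.47 (SE 0.18) with 0.11. Both were well above background on all arrays and neither overlapped between genotypes.

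Of 18 scaffold and auxiliary proteins of glutamate receptors, the table named 3, each higher. *Neto2*, an auxiliary subunit of kainate receptors, changed by 0.92 (SE 0.23) with 0.26 on the slide and was well above background on 1 WT array. *Homer3*, which links metabotropic receptors to calcium stores, changed by 0.61 (SE 0.17) with 0.56, and *Grip1*, which anchors AMPA receptors, by 0.45 (SE 0.15) with 0.24. The others carry no symbol here and were not analysed.

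Of the inhibitory receptor genes, *Glrb*, *Gabrd* and *Gabra4* are described here, which is not the whole group. The subunit encoded by *Glrb* is the one that anchors glycine receptors at the synapse. Its signal was 1.75, 1.77 and 2.06 on the KHSRP-KO arrays and 1.1, 1.13 and 1.33 on the WT arrays, a change of 0.67 (SE 0.16) with 0.42 on the slide. All KHSRP-KO arrays were above all WT arrays.

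*Gabrd* and *Gabra4* encode the delta and alpha4 subunits that combine in receptors outside the synapse and carry tonic inhibition. *Gabrd* changed by 0.49 (SE 0.15) with 0.40 on the slide and *Gabra4* by 0.39 (SE 0.16) with 0.11. Of 7 genes for GABA synthesis, transport and the inhibitory synapse, such as *Gad1* and *Gphn*, the table named 0. Those 7 carry no symbol here and were not analysed, so whether they changed is not known.

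**Figure D3:**
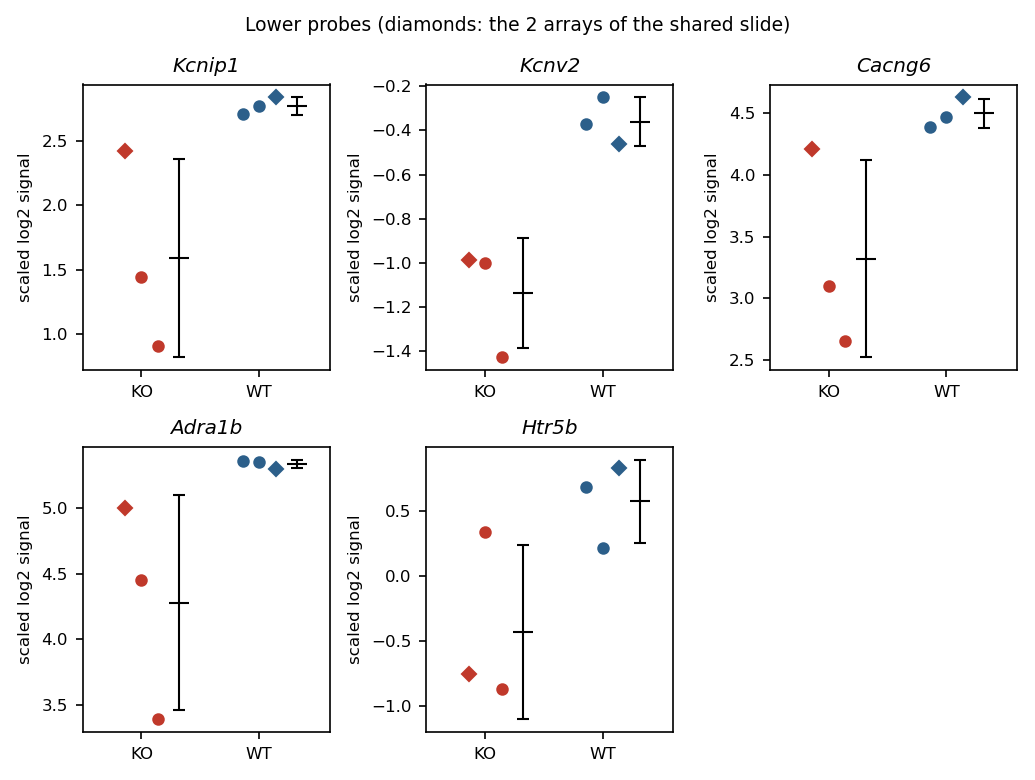
Scaled log2 signal of the 5 lower probes named in the text on each array, with the mean ± SD of the 3 arrays of each genotype beside the points (red KHSRP-KO, blue WT; diamonds are the arrays of the shared slide). KHSRP-KO array 1 is the KHSRP-KO array nearest to WT in all panels but *Htr5b*, where array 2 lies within the WT range; each panel has its own axis.

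Nicotinic and ATP-gated receptors each gave 1 gene. *P2rx3*, the ATP receptor best known from sensory neurons, was at -1.33, -1.12 and -0.91 on the KHSRP-KO arrays and -1.81, -1.91 and -1.75 on the WT arrays, a change of 0.70 (SE 0.17) with 0.42 on the slide. *Chrna4*, a subunit of the main high-affinity nicotinic receptor of the brain, changed by 0.46 (SE 0.17) with 0.31 on the slide. The genotypes did not overlap for either.

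Of the alpha1 adrenergic receptors, which couple noradrenaline to phospholipase C, the table named *Adra1a* as higher and *Adra1b* as lower. Both named probes of *Adra1a* were higher, and each had been selected as such on these arrays. Probe ASMM10P012128 was at 3.40, 3.29 and 3.59 against 2.66, 2.65 and 2.73, a change of 0.75 (SE 0.15) with 0.67 on the slide. Probe ASMM10P006447 was at -2.47, -2.42 and -2.69 against -3.03, -2.97 and -3.28, a change of 0.57 (SE 0.16) with 0.81 on the slide. *Adra1b* was lower, at 5.0, 4.45 and 3.39 against 5.36, 5.35 and 5.30, a change of -1.05 (SE 0.38), or 0.482-fold, with -0.30 on the slide. The WT arrays of *Adra1b* were the tightest of any lower member (SD 0.03) and its KHSRP-KO arrays the most spread (SD 0.82). The arrays of the shared slide are among those on which *Adra1a* was selected as higher and *Adra1b* as lower. Their opposite signs there thus follow in part from that choice. Whether the probes of *Adra1a* detect different transcripts was not analysed here.

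*Htr5b*, a serotonin receptor known in mouse brain for expression in hippocampal area CA1, was the only lower member whose genotypes overlapped. It was at -0.75, 0.34 and -0.87 on the KHSRP-KO arrays and 0.68, 0.21 and 0.83 on the WT arrays, a change of -1.0 (SE 0.35) with -1.58 on the slide. KHSRP-KO array 2 lay among the WT arrays, and arrays 1 and 3 lay below. Of 6 hippocampal markers the table named 2, both lower and both known from CA1. *Fibcd1* was at 0.54, 1.91 and 0.34 against 1.98, 1.56 and 2.35, and *Spink8* at -1.74, 1.07 and -1.36 against 1.55, 1.06 and 2.03. Both were low on KHSRP-KO arrays 1 and 3 and within the WT range on array 2, as *Htr5b* was. Their changes were -1.03 (SE 0.43) and -2.22 (SE 0.70), with -1.81 and -3.77 on the slide. The part of hippocampal tissue in the change of *Htr5b* was not tested.

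**Figure D4:**
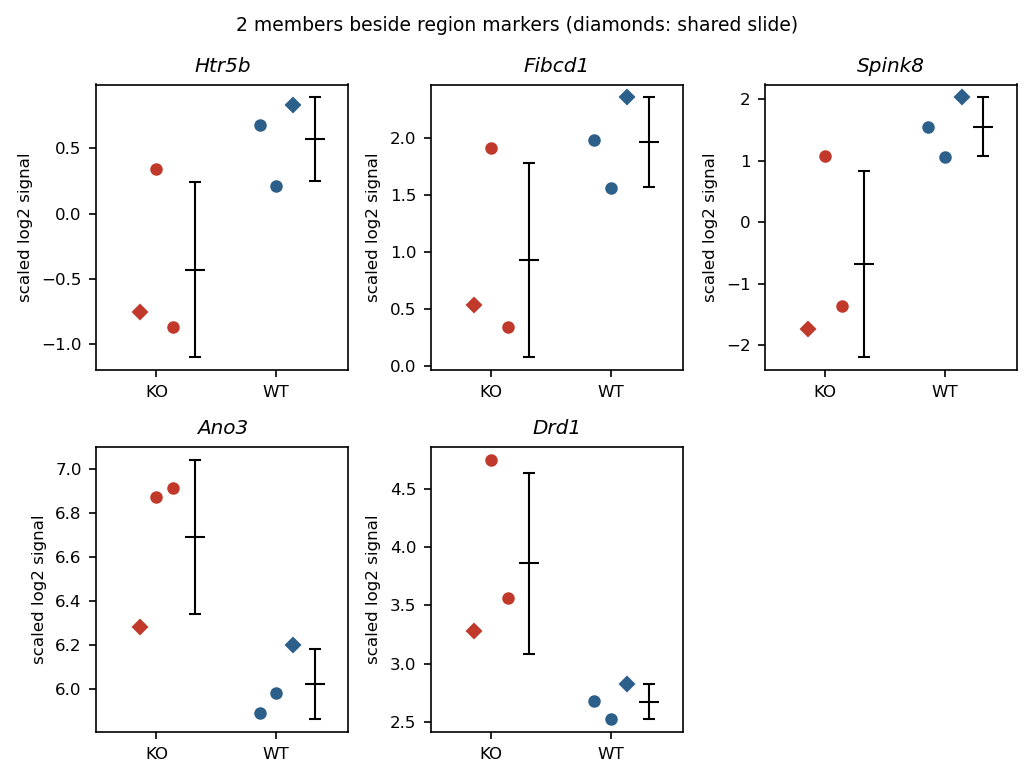
Scaled log2 signal on each array of *Htr5b* beside the hippocampal markers *Fibcd1* and *Spink8*, and of *Ano3* beside the striatal marker *Drd1*, with the mean ± SD of 3 arrays (red KHSRP-KO, blue WT; diamonds mark KHSRP-KO array 1 and WT array 3). In the top row KHSRP-KO array 2 sits with the WT arrays and arrays 1 and 3 below them; each panel has its own axis.

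Other cell types were named sparsely in the table. Of 9 neuronal markers it named 2, in opposite directions. *Snap25* was higher by 0.55 (SE 0.20) with 0.33 on the slide. *Camk2a* of excitatory neurons was lower, by -0.86 (SE 0.19) with -0.92 on the slide, and both were well above background on all arrays. The astrocyte marker *Slc1a2*, 1 of 7, was higher by 0.48 (SE 0.18) with 0.15 on the slide. The table named 0 of 8 interneuron, 9 thalamic, 8 oligodendrocyte, 7 microglial and 7 vascular markers. Markers that it did not name carry no symbol here and were not analysed, so whether they changed is not known. Of 13 partners and anchors of potassium and sodium channels it named 2. *Fgf12*, which binds the tail of sodium channels, was higher by 0.52 (SE 0.15) with 0.61 on the slide, and *Ank3*, the ankyrin that holds sodium and potassium channels at the axon initial segment, was lower, by -0.90 (SE 0.24) with -0.29.

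*Htra3*, the protease that shares only its first letters with the serotonin receptors, was higher by 0.52 (SE 0.17) with 0.25 on the slide. Without it the median of the higher members was still 0.61. In RefSeq, 327 protein-coding genes have symbols of the kinds searched, of which 33 (*Htra3* among them) were in the higher part of the table and 6 in the lower. Potassium channel symbols (Kcn) gave 12 higher and 2 lower of 94, and calcium channel symbols (Cacn) 1 and 1 of 26. Metabotropic glutamate receptors (Grm, 8 symbols), muscarinic receptors (Chrm, 5), beta-adrenergic receptors (Adrb, 3) and adenosine receptor symbols (Adora, 4) gave 0. The table named 1714 genes in all. How many of the 327, or of all genes, have a probe on the array was not analysed here. The counts by family thus cannot be called more or fewer than over all genes.

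**Figure D5:**
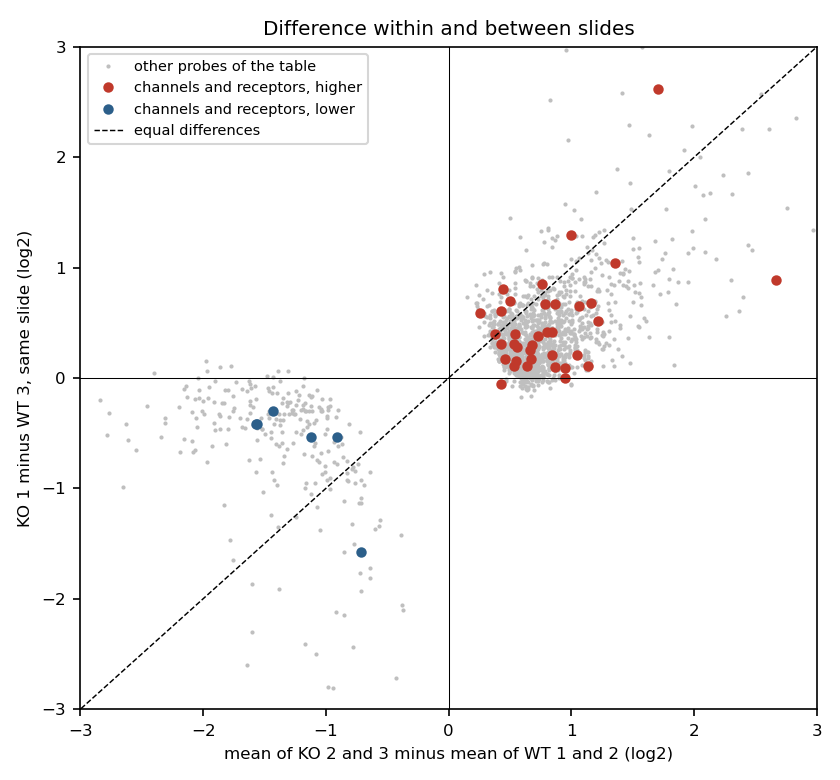
Difference between KHSRP-KO array 1 and WT array 3 on the shared slide (vertical) against the mean of KHSRP-KO arrays 2 and 3 minus the mean of WT arrays 1 and 2 (horizontal), both in log2 units, for the higher (red) and lower (blue) members and the other probes of the table (grey). Most points lie between the horizontal line at 0 and the dashed line of equal differences, and the members lie among the other probes; 24 other probes fall outside the plotted range.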

How the data were processed

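The authors depleted rRNA, labelled the RNA with oligo(dT) and random primers, and deposited the scanner output of 6 arrays as written by Feature Extraction 11.0.1.1 (Agilent). Per the file headers, the processed signal the authors deposited is an intensity from which the software subtracted background, with no scaling between arrays, and the spot and background medians are intensities as scanned. The 0 or 1 marks for spots above background, saturated or outlying are no measurements. The authors also deposited normalized log2 values of the same arrays, whose normalization is not given in the sources used here.

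Each array held 61500 spots other than controls, of which between 71.3% and 82.6% were well above background, 0 were saturated and between 47 and 64 were left out as outliers. Spots of a probe were averaged as log2 minus the 75th percentile of the array. The genotype difference of 48436 probes and its SE came from limma 3.58.1 (lmFit, eBayes, prior degrees of freedom 3.19), run under R 4.3.3. The median residual SD was 0.245, and precision is limited by the number of arrays. Tables and figures were made with pandas 2.3.3 and matplotlib 3.10.9. The fit was first tested on simulated data.

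Members are probes whose symbol in the study's table begins with Kcn, Scn, Cacn, Hcn, Trpa, Trpc, Trpm, Trpv, Clcn, Ano, Ryr, Itpr, Gria, Grid, Grik, Grin, Grm, Gabr, Glr, Chrn, Chrm, Htr, Adra, Adrb, Adora, P2r or Npy. Rows of its lower part were matched to probes by raw values. Members and lists were chosen with earlier results of these data known. The columns of fold changes and p-values in that table were not used. The text names the members except 4 genes (5 probes) that are counted in totals but not reported here by name. Values on each array are given for the 6 higher members with the largest change, all lower members, genes with 2 probes and the first of each role, and for the markers beside *Ano3* and *Htr5b*. All 39 symbols were in the RefSeq table, and 34 of 34 RefSeq accessions had the same symbol there. Probe and protein sequences were not analysed here, nor was sharing of signal between related genes.

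Alternatives were 4 scalings, normexp with an offset of 50, the authors' log2 values, other filters on dim probes, the methods' t-test, limma with a trend and robust variances, slide and replicate number as blocks, and each array left out. Slides were inferred from identical scan times. Same-numbered arrays did not pair, since the correlations of their deviations were -0.31, 0.11 and -0.31.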

Additional observations from a re-analysis of the deposited data

How the results depend on the processing

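Of 711 member values over 17 alternatives, 709 kept their direction, for which the members had been selected on these same arrays. In size, and leaving aside *Kcna2*, which changed direction, 30 of the 42 members moved by at least their SD within genotypes without scaling. With the slide as a fixed block 28 did. *Kcna2* turned to -0.02 without scaling and to -0.05 with the slide as a fixed block. That block leaves only the difference between KHSRP-KO array 1 and WT array 3, and with it 6 higher and 0 lower members were called, the medians were 0.39 and -0.47, and 1762 probes in all were higher and 1093 lower. Without scaling, the median of all probes was -0.29, 1221 probes were higher and 7287 lower against 4484 and 3405 with scaling, and 10 higher members were called with a median of 0.32. The methods' t-test called 2 lower members and 1817 lower probes, and the slide as a random block 2214 lower probes. Normexp brought *Grin3b*, *Ano5*, *Kcnmb3*, *Kcnc2* and *Kcnt2* to between 0.47 and 0.55, where a fixed offset shrinks dim probes.

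Leaving out 1 array at a time gave between 2520 and 6642 higher and between 1495 and 6409 lower probes, between 22 and 34 higher and between 4 and 5 lower members, and medians between 0.53 and 0.75 and between -1.28 and -0.78. The 22 came without KHSRP-KO array 3, WT array 1 or WT array 2. After adjustment, 0 members passed in any setting but without KHSRP-KO array 1, where 11 did. Over all probes, 46 passed after adjustment, against 72 with a median shift, 97 with trend and robust variances, 23 without scaling or with a filter for all arrays, 27 with the slide as a random block, 1 by the t-test, 0 with the slide as a fixed block. Omitting single arrays gave between 6 and 2046 such probes, the 2046 without KHSRP-KO array 1. With the replicate block, 26 higher and 6 lower members and 3540 higher and 2668 lower probes were called, with medians of 0.61 and -1.03, and 1 probe passed after adjustment. The scaled values of dim probes are limited by background, which bears most on *Grin3b* and *Ano5*.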
